A study of Mus musculus with 6 samples.

Results

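The collagen genes of sorted cells of the mouse embryo were compared, class by class, between cells with and without expression of an Ebf2 reporter. The members were every gene whose symbol has the form of a collagen chain (Col, a type number, a, a chain number) among the probe sets that list 1 gene, and they were 44 of the 22180 genes measured. They were grouped by the architecture of the protein into 11 fibrillar, 6 basement membrane, 9 FACIT, 6 beaded (type VI), 3 network and 4 transmembrane genes, and 5 genes lay outside these 6 classes. Sorted cells that were Ebf2-GFP positive and PDGFRα positive (3 arrays) were set against cells that were Ebf2-GFP negative and PDGFRα positive (3 arrays). Both came from enzyme-digested dorsal body wall of 129SV embryos at E14.5 that carried 1 GFP reporter allele of Ebf2 beside a wild-type allele, so both groups share the heterozygous Ebf2 locus and the selection for PDGFRα, a receptor of mesenchymal cells. GFP shows where the Ebf2 locus was active and can outlast the transcript. The labels do not say how many embryos went into a sample or whether each replicate is another litter, and each p-value therefore reflects only how much these 6 samples vary, part of which may be technical.

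Collagens are secreted or membrane-bound proteins of 3 chains wound into a rod-like helix, and a collagen type can be built from 1 chain gene or from several. Fibrillar collagens form the banded fibrils of skin, bone, tendon and cartilage. FACIT collagens sit on the surface of those fibrils, basement membrane collagen forms the sheet under epithelia and around vessels, and type VI forms beaded microfibrils near cells. In fibroblasts types I and III are the bulk of the matrix, whereas types II, IX and XI are the fibril set of cartilage.

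Of the 44 collagen genes, 3 were higher and 10 were lower in GFP-positive cells at a Benjamini-Hochberg adjusted p under 0.05 in limma's test over all genes. This test did not pair the arrays by replicate number. Over all 22180 genes 2.65% were called higher and 3.84% lower, against 6.82% and 22.7% of the collagen genes. The genes that rose were Col4a1, Col4a2 and Col6a3. Those that fell were Col2a1, Col11a1 and Col11a2 among the fibrillar genes, Col9a1, Col9a2 and Col9a3 among the FACIT genes, and Col4a6, Col8a1, Col23a1 and Col7a1. The median log2 change of the 44 genes was −0.045, beside 0.016 over all genes, with 20 fitted changes above 0 and 24 below. Over all genes 12446 fitted changes were above 0 and 9734 below. Of the 10 lower genes 5 were at least 2-fold lower (1.39% of all genes), and none of the 3 higher genes reached 2-fold (0.352% of all genes). With the replicate number as a block 5 collagen genes were higher and 10 lower, by the addition of Col5a3 and Col6a6, while 4.55% of all genes were called higher and 5.49% lower. After centring each array on the median of its genes, 53.7% of all calls were higher in place of 40.9%, and the collagen counts were again 3 and 10. These are bulk samples, in which fewer cells of a type and less RNA per cell cannot be told apart.

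**Figure D1:**
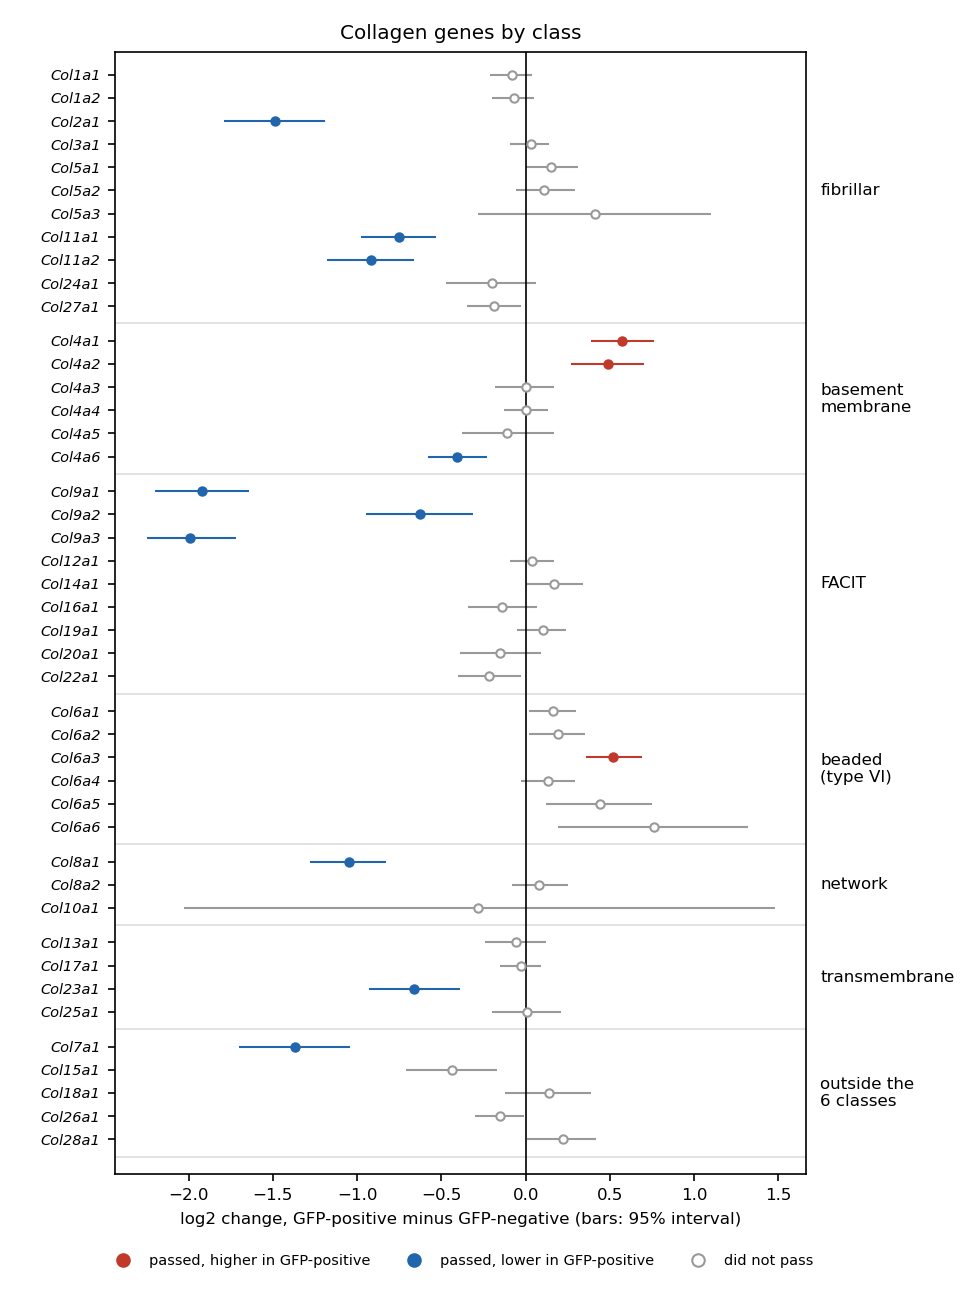
Log2 change of each of the 44 collagen genes (GFP-positive minus GFP-negative, x axis) by class, with limma's 95% interval as bars and filled points for genes that passed the test. The decreases of 1 or more sit at Col2a1, Col9a1, Col9a3, Col8a1 and Col7a1, and the 3 increases at Col4a1, Col4a2 and Col6a3.

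The sort was first checked on its own genes. Ebf2 was at log2 12.04, 12.04 and 11.93 in GFP-positive cells, against 8.16, 8.6 and 9.21 in GFP-negative cells (10.2-fold higher, adjusted p = 0.000916). Pdgfra was at 13.24, 13.10 and 13.07 in GFP-positive cells, against 12.97, 12.98 and 12.90 in GFP-negative cells, and did not pass (adjusted p = 0.178). Transcripts that mark other cell types were also measured, and their counts stand beside 2.65% of all genes called higher and 3.84% called lower. All 17 of 17 macrophage markers were lower in GFP-positive cells, with a summed linear level of 2616 to 5165 in GFP-positive and 13051 to 25540 in GFP-negative arrays. Of the meninges and mesothelium markers 4 of 9 were lower (Slc6a13, Zic2, Foxc2 and Ptgds) and 1 higher (Wt1, 1.7-fold). The other 4 of that list, Msln, Upk3b, Krt19 and Aldh1a2, did not pass, with changes between −0.16 and 0.02. Of the Schwann and neural crest markers 2 of 7 were lower and 0 higher. The summed level of the meninges list was 3860 to 4529 in GFP-positive and 7049 to 8301 in GFP-negative arrays, and that of the Schwann list was 1854 to 2609 in GFP-positive and 4853 to 6185 in GFP-negative arrays. Most of the Schwann difference came from Fabp7. Without Fabp7 the Schwann sums were 942 to 1068 in GFP-positive and 1227 to 1516 in GFP-negative arrays. Of the epidermis markers 1 of 8 was lower, and of the skeletal muscle markers 1 of 10 was higher, with a summed level of 2531 to 3123 in GFP-positive and 2138 to 2634 in GFP-negative arrays. Of the tendon and ligament markers 1 of 6 was higher and 1 lower, with a summed level of 9614 to 13704 in GFP-positive and 6496 to 7476 in GFP-negative arrays. Without Thbs4, the member called higher, the tendon sums overlapped, at 5218 to 7530 in GFP-positive and 5070 to 5743 in GFP-negative arrays. Fitted changes were above 0 in 5 of the 6 tendon markers and below 0 in 1, Fmod. Tnmd was 2.07-fold higher with arrays that did not overlap, but did not pass limma's test (adjusted p = 0.0974, or 0.0143 with the replicate block). With that block 3 of the 6 were higher and 1 lower, beside 4.55% and 5.49% of all genes. The part of these cell types in the collagen results was not tested.

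The collagens of types I and III, the bulk of the matrix of fibroblasts, were nearly level between the groups. Col1a1, which encodes the main chain of type I collagen, was at 13.57, 13.56 and 13.64 in GFP-positive cells, against 13.64, 13.69 and 13.69 in GFP-negative cells. These arrays did not overlap, but the log2 change of −0.08 did not pass (95% interval −0.21 to 0.04, adjusted p = 0.49). Col1a2, its partner chain, had a change of −0.07 (−0.20 to 0.05, adjusted p = 0.568). Col3a1, the single chain of type III collagen, was at 13.21, 13.19 and 13.25 in GFP-positive and at 13.18, 13.18 and 13.21 in GFP-negative cells, a change of 0.03 (−0.09 to 0.14, adjusted p = 0.845). Their values lie close to the highest value in the data, 14.32, where arrays can compress differences, and whether they do so here was not tested.

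Type V collagen sets the diameter of type I fibrils, and none of its chains passed. Col5a1 had a change of 0.15 (interval −0.00 to 0.31) with arrays that did not overlap, and Col5a2 one of 0.11 (−0.06 to 0.29). Col5a3 was at 8.30, 8.52 and 9.21 in GFP-positive cells, against 7.90, 8.17 and 8.74 in GFP-negative cells. The groups overlap for Col5a3, since replicate 3 was high in both, and the change of 0.41 ± 0.29 SE did not pass (adjusted p = 0.554). Under the block on replicate number Col5a3 rose (adjusted p = 0.0123), and the same-numbered arrays differed by 0.40, 0.36 and 0.47. Col24a1 and Col27a1, fibrillar collagens known from developing bone and cartilage, had changes of −0.20 and −0.19 (adjusted p = 0.432 and 0.182).

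The 3 fibrillar genes that fell were those of cartilage fibrils. Col2a1, the chain of type II collagen, was at 10.70, 10.89 and 10.73 in GFP-positive cells, against 12.54, 12.11 and 12.13 in GFP-negative cells. Every GFP-positive array lay more than 1 log2 unit under every GFP-negative array, a 2.8-fold decrease (log2 change −1.49 ± 0.13 SE, adjusted p = 0.00153). Col11a1 and Col11a2 encode chains of type XI collagen, which lies inside the type II fibril. Col11a1 was at 10.51, 10.64 and 10.36 in GFP-positive cells, against 11.38, 11.24 and 11.15 in GFP-negative cells (1.69-fold lower, −0.75 ± 0.09 SE, adjusted p = 0.00626). Col11a2 was at 7.47, 7.85 and 7.74 in GFP-positive cells, against 8.73, 8.51 and 8.57 in GFP-negative cells (1.89-fold lower, −0.92 ± 0.11 SE, adjusted p = 0.00547). The calls of these 3 genes held with each array left out in turn. Outside the cartilage genes, 0 of 7 fibrillar genes passed in either direction, and 0 of the 7 had an unadjusted p under 0.05. Over all genes 3927 of 22180 had an unadjusted p under 0.05 in limma's test, so a count of 0 among so few genes says little.

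Among the FACIT genes, all 3 chains of type IX collagen fell and none of the other 6 genes passed. Type IX decorates the surface of type II fibrils. Col9a1 was at 9.33, 9.48 and 9.41 in GFP-positive cells, against 11.52, 11.39 and 11.07 in GFP-negative cells. Col9a3 was at 8.88, 9.28 and 9.02 in GFP-positive cells, against 11.14, 11.03 and 10.96 in GFP-negative cells. Both fell with the groups far apart. The log2 change of Col9a1 was −1.92 ± 0.12 SE (3.79-fold lower, adjusted p = 0.000527) and that of Col9a3 was −1.99 ± 0.11 SE (3.97-fold lower, adjusted p = 0.000405). Col9a2 was at 8.89, 9.10 and 8.68 in GFP-positive cells, against 9.39, 9.73 and 9.43 in GFP-negative cells. The groups of Col9a2 did not overlap, but its 1.55-fold decrease (−0.63 ± 0.13 SE, adjusted p = 0.0416) was smaller than those of its partner chains, and its interval of −0.95 to −0.31 does not reach theirs. The call of Col9a2 ended without any 1 array (adjusted p = 0.0554 to 0.144).

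The 3 chains of type IX are thought to assemble 1 to 1 to 1, so their unequal change was set out by array. Each log2 difference compares different probe sets, which can respond unequally, and protein was not measured. The log2 difference of Col9a2 over Col9a3 was 0.02, −0.18 and −0.34 in GFP-positive arrays and −1.75, −1.30 and −1.53 in GFP-negative arrays, a change of 1.36. The groups did not overlap (exact two-sided permutation p = 0.1, the smallest that 3 arrays against 3 allow, and 0.205 after adjustment over the 39 chain pairs of 7 collagen types compared). The same held for Col9a1 over Col9a2, with a change of −1.29, whereas Col9a1 over Col9a3 overlapped (change 0.07). In 19 of the 39 pairs the groups did not overlap. Many of these pairs share a gene and are not independent. The share over other pairs of genes was not computed, so the count is only a description.

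The remaining FACIT genes did not pass. Col12a1, a FACIT gene of dense connective tissue, was at 12.94, 13.04 and 12.97 in GFP-positive cells, against 12.90, 12.96 and 12.96 in GFP-negative cells (change 0.04, interval −0.09 to 0.17). Col14a1, which binds type I fibrils in skin and tendon, had non-overlapping arrays and a change of 0.17 ± 0.07 SE (adjusted p = 0.269). Col16a1, Col19a1, Col20a1 and Col22a1 had changes of −0.14, 0.10, −0.15 and −0.22. Col14a1 and Col22a1 had an unadjusted p under 0.05 in limma's test, as did 3927 of all 22180 genes, and the other 4 genes did not. The mean of Col19a1 lay under log2 6.78, the 40th percentile of gene means, which served as a mark of dim genes because the files carry no detection calls. In all, 5 collagen genes lay under that mark.

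Across classes, 8 collagen genes are known as genes of cartilage (Col2a1, Col9a1, Col9a2, Col9a3, Col10a1, Col11a1, Col11a2 and Col27a1). Of these 6 of 8 fell and 0 rose, with a median change of −0.836, against 4 lower and 3 higher of the other 36 collagen genes, whose median of 0.016 was that of all genes. The list had been seen to fall in these data before it was written down, so its count is a description. Chondrocyte markers other than collagens moved in the same direction in the same arrays. Of 15 such markers 13 were lower and 0 higher, with a summed linear level of 8101 to 9498 in GFP-positive arrays and 22385 to 25283 in GFP-negative arrays. The 3 markers with the smallest p in limma's test, Matn3, Hapln1 and Cnmd, fell 4.59-fold, 3.99-fold and 2.74-fold. The summed level of the 8 cartilage collagens was 5557 to 6437 in GFP-positive and 13199 to 15708 in GFP-negative arrays. Every defining marker was measured above the dim mark in the mean over arrays, and the part of cartilage cells in the collagen decreases was not tested.

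**Figure D2:**
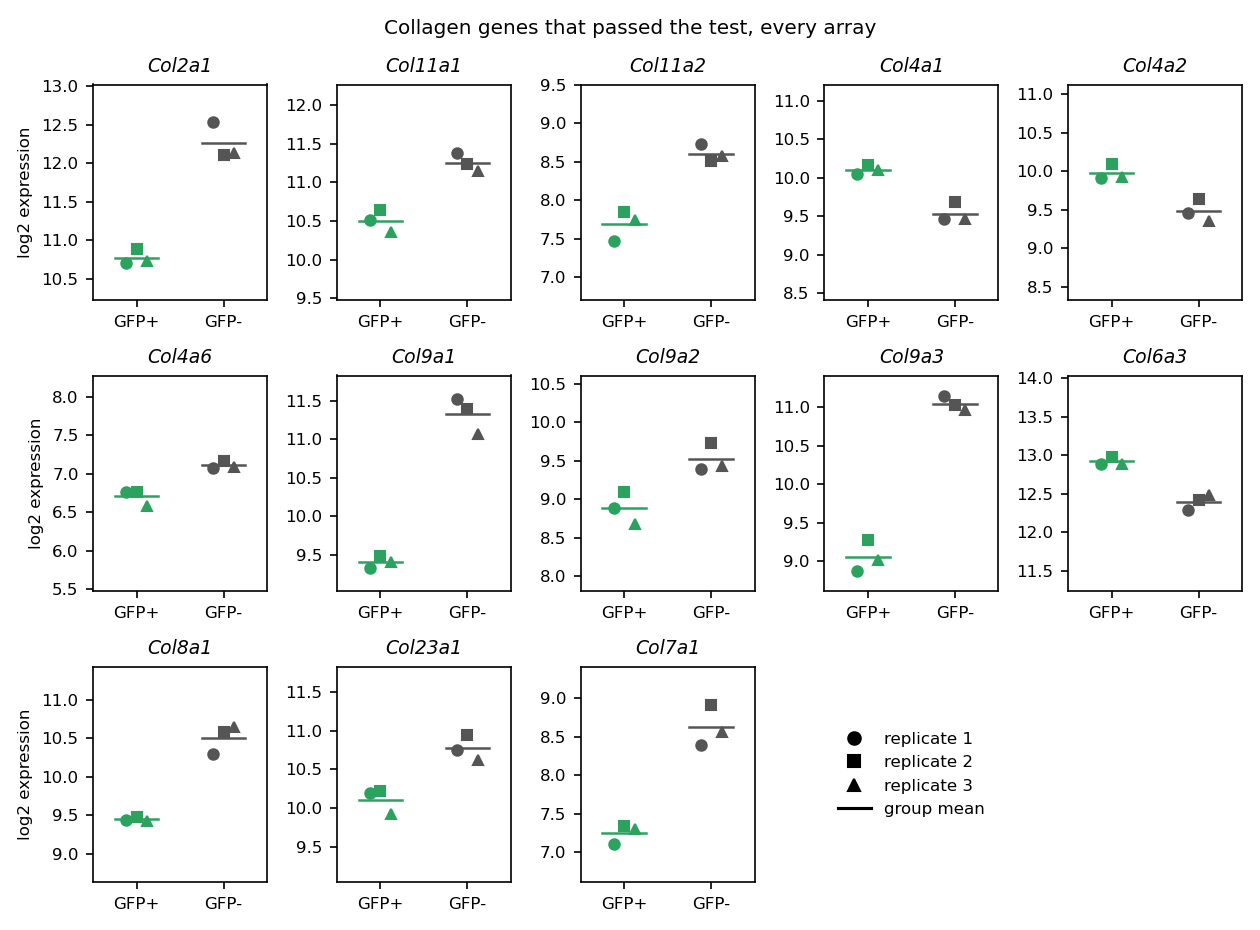
Log2 expression (y axis, each panel spanning 2.8 log2 units) of the 13 collagen genes that passed the test, for the 3 GFP-positive arrays at the left and the 3 GFP-negative arrays at the right of each panel. Symbols mark the replicate number and lines the group means, and in each panel the arrays of the groups do not overlap.

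Of the 6 basement membrane genes, which encode the chains of type IV collagen, Col4a1 and Col4a2 rose, Col4a6 fell and the other 3 did not pass. These genes lie in pairs, head to head, with a start region in common or close by: Col4a1 with Col4a2, Col4a3 with Col4a4, and Col4a5 with Col4a6. The start regions of the pair that rose and of the 1 gene that fell are shown because the windows of that pair overlap on opposite strands. Each runs from 250 bases before to 50 bases after the start and was taken from RefSeq on GRCm38.p6. Capitals mark a CCAAT box (letters CCAAT, or ATTGG for the other strand), a sequence bound by the general factor NF-Y. The Col4a1 window is chr8:11312777-11313076 on the minus strand, that of Col4a2 is chr8:11312555-11312854 on the plus strand, and that of Col4a6 is chrX:141474027-141474326 on the minus strand.
Col4a1: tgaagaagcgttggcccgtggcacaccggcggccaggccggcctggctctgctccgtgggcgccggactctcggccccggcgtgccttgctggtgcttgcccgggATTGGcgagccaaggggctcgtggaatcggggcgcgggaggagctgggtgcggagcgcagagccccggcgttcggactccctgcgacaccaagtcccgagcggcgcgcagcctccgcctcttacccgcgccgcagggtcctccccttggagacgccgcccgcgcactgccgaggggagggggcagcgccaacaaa
Col4a2: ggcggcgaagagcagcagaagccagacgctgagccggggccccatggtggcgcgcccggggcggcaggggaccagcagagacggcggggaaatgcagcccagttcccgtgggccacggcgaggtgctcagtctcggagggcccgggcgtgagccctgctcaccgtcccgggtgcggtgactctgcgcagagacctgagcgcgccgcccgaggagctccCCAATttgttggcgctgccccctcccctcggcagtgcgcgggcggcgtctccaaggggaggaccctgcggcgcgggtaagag
Col4a6: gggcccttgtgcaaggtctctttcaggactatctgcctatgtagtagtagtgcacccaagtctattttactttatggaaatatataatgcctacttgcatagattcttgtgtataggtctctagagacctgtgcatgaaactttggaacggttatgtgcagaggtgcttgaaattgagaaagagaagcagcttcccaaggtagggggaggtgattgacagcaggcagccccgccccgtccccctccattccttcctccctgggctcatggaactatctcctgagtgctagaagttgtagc

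The starts of Col4a1 and Col4a2 lie 21 bases apart and their windows share 78 bases, whereas those of Col4a6 and Col4a5 lie 1343 bases apart. Windows were found for 35 of the 44 collagen genes (38 windows). A CCAAT box on either strand was in 13 of the 38 windows (34.2%, beside 37.4% of all 32851 windows in the table), among them 1 each in Col4a1 and Col4a2 and none in Col4a6. The palindromic EBF consensus, TCCCNNGGGA, was in 0 of the 38 windows, beside 0.904% of all windows, and a TATA box (TATAAA, either strand) was in 13.2%, beside 13.6%. These matches describe letters and not bound sites.

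Col4a1 and Col4a2 encode the chains of the type IV collagen found in nearly every basement membrane. Col4a1 was at 10.05, 10.16 and 10.10 in GFP-positive cells, against 9.46, 9.68 and 9.46 in GFP-negative cells. Col4a2 was at 9.91, 10.09 and 9.92 in GFP-positive cells, against 9.46, 9.64 and 9.36 in GFP-negative cells. All GFP-positive arrays lay above all GFP-negative arrays for both, and the chains rose by like amounts: Col4a1 by 1.49-fold (0.57 ± 0.08 SE, adjusted p = 0.00832) and Col4a2 by 1.4-fold (0.49 ± 0.09 SE, adjusted p = 0.0261). The log2 difference of Col4a1 over Col4a2 changed by 0.09, with overlapping arrays (exact permutation p = 0.2). Leaving out 1 array ended the call of Col4a2 in 5 of 6 cases, all but negative replicate 2 (adjusted p up to 0.0963), while Col4a1 held in each case.

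None of the other 4 chains of type IV was called higher. Col4a3 and Col4a4, chains of specialised basement membranes such as that of the kidney glomerulus, had changes of −0.00 and 0.00, with means under the dim mark. Col4a5 was at 7.76, 7.54 and 7.43 in GFP-positive cells, against 7.64, 7.86 and 7.54 in GFP-negative cells, and did not pass (change −0.11, interval −0.38 to 0.17). Col4a6, its head-to-head partner, was at 6.77, 6.77 and 6.58 in GFP-positive cells, against 7.08, 7.17 and 7.09 in GFP-negative cells. The groups of Col4a6 did not overlap and it fell 1.32-fold (−0.41 ± 0.07 SE, adjusted p = 0.0224), with a GFP-positive mean of 6.71 under the dim mark, so that the fold can be an underestimate. The call of Col4a6 ended without any 1 array (adjusted p = 0.0557 to 0.077). The log2 difference of Col4a5 over Col4a6 changed by 0.30 with arrays that did not overlap (exact permutation p = 0.1).

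Cells of vessel walls also make type IV collagen. Of 10 endothelial markers 1 was higher (Emcn, an endothelial sialomucin, 1.92-fold) and 1 lower (Cdh5, the endothelial cadherin, 2.00-fold), with a summed level of 8746 to 10014 in GFP-positive and 8022 to 11018 in GFP-negative arrays. Of 12 mural and smooth muscle markers 1 was higher and 4 were lower, with a summed level of 15530 to 16311 in GFP-positive and 17393 to 18401 in GFP-negative arrays. The call of Emcn ended without negative replicate 3 or any positive one, and that of Cdh5 without replicate 2 of either group (adjusted p up to 0.0943 and 0.066). Without Cdh5 the endothelial sum was 7560 to 8354 in GFP-positive and 5507 to 7615 in GFP-negative arrays. The summed endothelial ranges overlap with or without Cdh5, and the mural range was lower in GFP-positive arrays. Without Acta2 the mural ranges lay closer, at 13231 to 13765 in GFP-positive and 13855 to 14488 in GFP-negative arrays. Cnn1, Rgs5 and Acta2 fell 1.88-fold, 1.57-fold and 1.54-fold, but 5 of the 12 mural changes were above 0. The part of vessel wall cells in the type IV changes was not tested.

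The type VI genes were the class in which every fitted change was above 0, although only Col6a3 passed. Over all genes 12446 of 22180 fitted changes were above 0. Type VI collagen links cells to the surrounding fibrils, and the usual trimer joins the products of Col6a1, Col6a2 and Col6a3. Col6a3 was at 12.89, 12.98 and 12.89 in GFP-positive cells, against 12.29, 12.42 and 12.49 in GFP-negative cells. The groups did not overlap, and Col6a3 rose 1.44-fold (0.52 ± 0.07 SE, adjusted p = 0.00776), a call that held with each array left out. Col6a1 was at 13.26, 13.29 and 13.33 in GFP-positive cells, against 13.04, 13.17 and 13.19 in GFP-negative cells, and Col6a2 at 12.69, 12.71 and 12.73, against 12.48, 12.44 and 12.66 in GFP-negative cells. Their groups did not overlap either, but the changes of 0.16 and 0.19 did not pass (adjusted p = 0.226 and 0.223). The log2 difference of Col6a1 over Col6a3 changed by −0.36 and that of Col6a2 over Col6a3 by −0.34, with arrays that did not overlap (exact permutation p = 0.1 each, 0.205 after adjustment).

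Col6a4, Col6a5 and Col6a6 are neighbouring genes that encode chains that can take the place of that of Col6a3. Col6a6 was at 11.50, 11.52 and 11.86 in GFP-positive cells, against 10.43, 10.81 and 11.38 in GFP-negative cells. The lowest GFP-positive array lay just above the highest GFP-negative one, and the change of 0.76 ± 0.24 SE did not pass (adjusted p = 0.143). Col6a6 rose under the replicate block (adjusted p = 0.0205) and when negative replicate 3, the highest of its group, was left out (1.01, adjusted p = 0.0326). Col6a5 was at 7.15, 7.18 and 6.76 in GFP-positive cells, against 6.41, 6.69 and 6.68 in GFP-negative cells (change 0.44, adjusted p = 0.136). Its GFP-negative mean of 6.59 lay under the dim mark. Col6a4 lay under the dim mark (change 0.13). Of the 6 genes 5 had arrays that did not overlap, higher in GFP-positive cells, as did 12.3% of all genes in that direction. Over the whole family 9 of 44 genes did so upward and 14 of 44 downward, beside 9.78% of all genes downward.

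The network class held 1 gene that fell. Col8a1, a short-chain collagen of vessel walls and the eye, was at 9.44, 9.48 and 9.42 in GFP-positive cells, against 10.29, 10.58 and 10.64 in GFP-negative cells. The GFP-positive arrays lay close together and well under the others, a 2.08-fold decrease (−1.05 ± 0.10 SE, adjusted p = 0.00204). Its partner chain Col8a2 was at 8.58, 8.54 and 8.75 in GFP-positive cells, against 8.54, 8.54 and 8.53 in GFP-negative cells (change 0.08, interval −0.08 to 0.25). The log2 difference of Col8a1 over Col8a2 changed by −1.14 with arrays that did not overlap (exact permutation p = 0.1).

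Col10a1, the collagen of hypertrophic cartilage, differed more between replicate numbers than between groups. It was at 6.61, 8.13 and 8.79 in GFP-positive cells, against 6.82, 8.33 and 9.21 in GFP-negative cells. Replicate 1 was low and replicate 3 high in both groups, so the groups overlap and the change of −0.28 ± 0.74 SE did not pass (adjusted p = 0.898). The same-numbered arrays differed by −0.21, −0.20 and −0.42, lower in GFP-positive cells in 3 of 3 pairs, and with the replicate block the adjusted p was 0.0679. The other 43 collagen genes spanned at most 0.91 within the GFP-positive and 0.95 within the GFP-negative arrays. The interval of its change, −2.03 to 1.48, spans large decreases and increases.

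**Figure D3:**
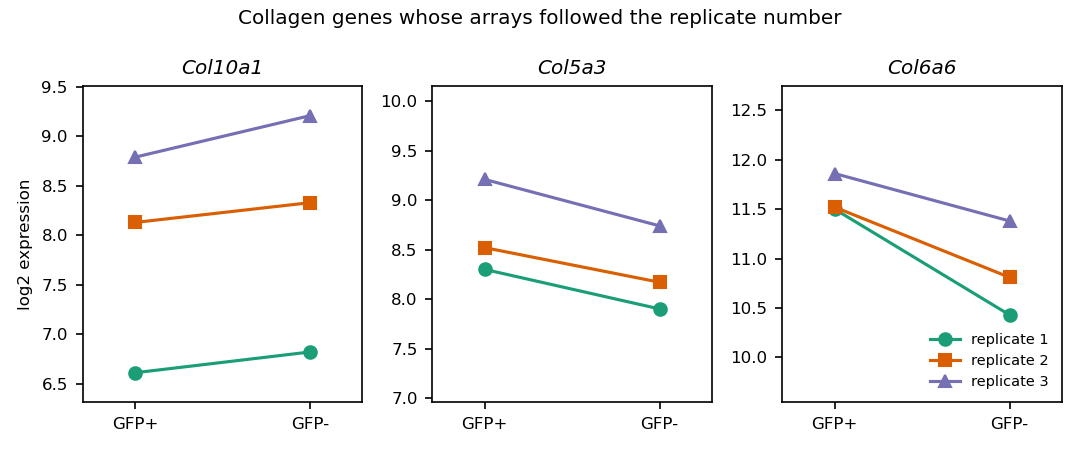
Log2 expression (y axis, each panel spanning 3.2 log2 units) of Col10a1, Col5a3 and Col6a6 in GFP-positive (left) and GFP-negative (right) arrays, with lines joining arrays of the same replicate number. Within each pair Col10a1 was lower, and Col5a3 and Col6a6 were higher, in GFP-positive cells, while replicate 3 was highest in both groups for all 3 genes.

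Of the 4 transmembrane collagens, which are held in the cell membrane and can be shed, only Col23a1 passed. It was at 10.19, 10.22 and 9.92 in GFP-positive cells, against 10.75, 10.95 and 10.62 in GFP-negative cells. The groups did not overlap, and Col23a1 fell 1.58-fold (−0.66 ± 0.11 SE, adjusted p = 0.0208). It missed the threshold when negative replicate 1, negative replicate 2 or any of the positive replicates was left out (adjusted p up to 0.0699). Col13a1, Col25a1 and Col17a1, the hemidesmosome collagen of epidermis, had changes of −0.06, 0.01 and −0.03, each with overlapping arrays.

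The 5 genes outside the 6 classes included 1 of the larger decreases. Col7a1 encodes the anchoring fibril that ties the epidermal basement membrane to the dermis. It was at 7.11, 7.34 and 7.30 in GFP-positive cells, against 8.39, 8.91 and 8.56 in GFP-negative cells. The groups lay about 1 log2 unit apart at their nearest, and Col7a1 fell 2.59-fold (−1.37 ± 0.14 SE, adjusted p = 0.00305). Of the 8 epidermis markers only Cdh1, an epithelial cadherin gene, passed (2.13-fold lower), and the list's summed level was 1062 to 1198 in GFP-positive and 1209 to 1284 in GFP-negative arrays. Without Cdh1 these ranges overlapped, at 902 to 1057 in GFP-positive and 897 to 988 in GFP-negative arrays. Other members had changes above 0, with 0.49 for Epcam (arrays not overlapping, adjusted p = 0.0976), 0.34 for Krt18 (adjusted p = 0.257, or 0.0413 with the replicate block) and 0.12 for Krt14. Col15a1 and Col18a1 are collagens of the basement membrane zone that carry glycosaminoglycans. Col15a1 was at 7.24, 7.59 and 7.61 in GFP-positive cells, against 7.95, 7.99 and 7.81 in GFP-negative cells, without overlap, but did not pass (−0.44 ± 0.11 SE, adjusted p = 0.0799). Col18a1, Col26a1 and Col28a1 had changes of 0.14, −0.15 and 0.22, and none passed.

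Genes that modify, export, trim, crosslink and bind collagen were read from 5 lists with 55 measured genes, of which 4 were higher and 6 lower. Over all genes 2.65% were called higher and 3.84% lower. Chain modification takes place in the endoplasmic reticulum, where prolines and lysines are hydroxylated and the chains fold with the chaperone Hsp47, the product of Serpinh1. Of 19 such genes 1 was higher and 0 lower, with a median change of 0.066. The gene that rose was Colgalt2, which adds galactose to hydroxylysine and was at 9.51, 9.45 and 9.45 in GFP-positive cells, against 8.88, 9.04 and 8.87 in GFP-negative cells (0.54 ± 0.06 SE, adjusted p = 0.00548). The prolyl hydroxylase gene P4ha1 and Serpinh1 had changes of −0.15 and −0.12 and did not pass. Of 9 genes of procollagen export and its transcription factors 0 passed in either direction, and the list showed changes between −0.06 and 0.17. An unadjusted p under 0.05 in limma's test was found for 0 of the 9, beside 3927 of all 22180 genes.

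Propeptide removal, which lets fibrils form outside the cell, had 2 of 9 genes higher and 2 lower (22.2% each, beside 2.65% and 3.84% of all genes). Tll2 encodes a protease of the tolloid family, some members of which cut the C-terminal propeptide. Whether the product of Tll2 does so was not measured here. Tll2 was at 8.37, 8.15 and 8.24 in GFP-positive cells, against 7.05, 6.96 and 6.85 in GFP-negative cells. It rose 2.46-fold (1.3 ± 0.08 SE, adjusted p = 0.000554). Its relative Tll1 rose 1.61-fold (adjusted p = 0.0431), and Bmp1, the founding member of the family, had a change of 0.15 and did not pass. Pcolce2, an enhancer of that cut, fell 1.71-fold (adjusted p = 0.00463), and Adamts3, which cuts the N-terminal propeptide and is best known for type II collagen, fell 1.47-fold (adjusted p = 0.0486). The calls of Tll1 and Adamts3 ended without any 1 array (adjusted p up to 0.164 and 0.128), and that of Adamts3 also with the replicate block (0.0692).

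Of 5 crosslinking genes 2 were lower and 0 higher, beside 3.84% and 2.65% of all genes. Loxl4 and Loxl3, lysyl oxidase relatives, fell 1.62-fold and 1.28-fold (adjusted p = 0.0228 and 0.0174), and both calls ended without positive replicate 1 or 2, that of Loxl3 also without positive replicate 3 and that of Loxl4 also without negative replicate 2 or 3 (adjusted p up to 0.101 and 0.0749). Lox itself had a change of −0.25 and fell only under the replicate block (adjusted p = 0.0477, against 0.123 without the block). Of 13 receptor and uptake genes 1 was higher and 2 were lower (7.69% and 15.4%). Itga11, the integrin subunit for fibrillar collagen, was at 8.90, 9.10 and 8.83 in GFP-positive cells, against 10.55, 10.27 and 10.11 in GFP-negative cells, a 2.58-fold decrease (−1.37 ± 0.12 SE, adjusted p = 0.00204). Itga1, whose integrin prefers type IV collagen, fell 1.73-fold (adjusted p = 0.00362). Antxr1, a receptor that binds the type VI chain of Col6a3, rose 1.37-fold (0.45 ± 0.07 SE, adjusted p = 0.0175). This call too ended when negative replicate 2 or any positive one was left out (adjusted p up to 0.0774). The receptor tyrosine kinase gene Ddr2 and the common subunit gene Itgb1 each had a change of −0.03 and did not pass.

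Osteoblasts secrete type I collagen, and their markers were read beside it. Of 7 such markers 1 was higher and 2 were lower, with a summed level of 3351 to 3692 in GFP-positive and 2659 to 3464 in GFP-negative arrays. Phex, an endopeptidase gene of bone cells, rose 5.43-fold and set the direction of that sum. Without Phex the sum was 955 to 1365 in GFP-positive and 2204 to 3118 in GFP-negative arrays. The genes that fell were Ibsp, which encodes bone sialoprotein (4.0-fold lower, adjusted p = 0.0289), and Sp7, an osteoblast transcription factor gene (1.98-fold lower, adjusted p = 0.00205). The call of Ibsp ended without positive replicate 3 or any 1 negative replicate (adjusted p up to 0.108). The summed level of the 7 fibrillar genes outside cartilage was 39535 to 41575 in GFP-positive and 39801 to 41557 in GFP-negative arrays, so these ranges overlap.

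**Figure D4:**
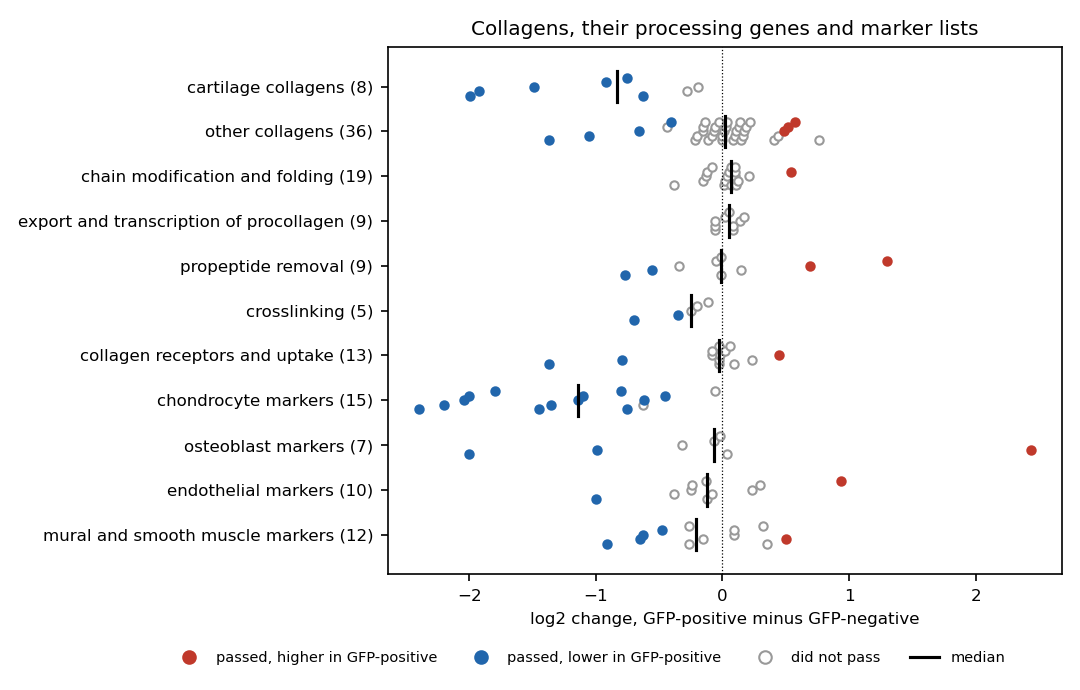
Log2 changes (GFP-positive minus GFP-negative, x axis) of collagen genes, of 5 lists of collagen processing and receptor genes and of 4 marker lists, with 1 point per gene, filled where it passed the test, and a line at each list's median. The 8 cartilage collagens and the 15 chondrocyte markers have medians of −0.836 and −1.135, and the other lists have medians between −0.253 and 0.066.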

How the data were processed

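RNA of the 6 samples was hybridised to Affymetrix arrays. The deposited table holds log2 values by probe set; RMA and limma are named in the submitters' processing notes, and their versions and any filters are not given in the sources used. The scale was inferred from the range (3.41 to 14.32; array medians 6.657 to 6.712). Because RMA equalises the arrays, a change common to most genes cannot be seen. Detection calls were not in the table, and precision is limited by having 6 arrays.

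Of 41345 probe sets (190 controls), 23521 list 1 gene, 1814 several and 15820 none in the platform table; only the first kind was named. Each of 22180 genes was represented by its brightest probe set (mean of 6 arrays). The 44 collagen genes had 47 such probe sets, and 1 further probe set lists a collagen among several genes. Second probe sets of Col1a2, Col5a1 and Col6a1 gave changes of 0.00, 0.15 and 0.10. Linear models were fitted with lmFit and then eBayes (limma 3.58.1, R 4.3.3) and were checked on simulated data. The simulated noise was independent between arrays, so that check does not cover the correlation of same-numbered arrays described below. Plots were drawn with matplotlib 3.10.9. Changes are GFP-positive minus GFP-negative; SE is limma's moderated standard error, and intervals are 95%. A summed linear level adds 2 to the power of the log2 values; marker sums were also taken without the gene whose group means differed most, a step chosen after seeing the data.

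The collagen classes, pathway and marker lists were chosen with earlier results of these data known. Genes are named by rule: all collagen genes, pathway genes that passed (at most 4 per direction) and up to 3 markers per list. In the meninges and mesothelium list every marker is named. Apart from Krt14, the markers named have the smallest p in their list. Serpinh1, P4ha1, Bmp1, Lox, Ddr2, Itgb1 and Krt14 did not pass and were chosen after their values were seen. Col21a1 and the 10 list entries without a 1-gene probe set were not analysed here, nor were protein sequences.

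The labels number replicates alike in both groups. Deviations from group means correlated at 0.314 to 0.519 between same-numbered arrays and at −0.384 to −0.024 otherwise. Such deviations cancel within a group and are not independent. On these data alone the numbers may pair the arrays, but the main test did not use them. A gene said to pass or not to pass was therefore judged without pairing, unless the block is named. In all, 1439 genes were called in the main test and 2228 with the block. The alternatives tried were a block on the number, a stricter threshold of 0.01, leaving out each array, other scalings (quantile, median centring), removing dim genes, averaging a gene's probe sets, and trended or robust eBayes.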

Additional observations from a re-analysis of the deposited data

How the results depend on the processing

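The collagen counts of 3 higher and 10 lower were 3 and 10 also after quantile normalization, both median centrings, removal of dim genes, averaging of probe sets and eBayes with a trend or robust. The replicate block gave 5 higher collagen genes, 1 higher fibrillar gene and 2 higher type VI genes, and 1010 higher genes in all; it changed no other call of a collagen gene. At a threshold of 0.01 there were 208 higher and 331 lower genes in all, 1 higher and 0 lower basement membrane genes and 0 lower transmembrane genes, because Col4a2, Col4a6, Col9a2 and Col23a1 have adjusted p-values between 0.01 and 0.05. With 1 array left out, 241 to 441 genes were higher and 388 to 656 lower in all, 2 to 3 collagen genes higher and 7 to 8 lower, 1 to 2 basement membrane genes higher and 0 lower, 1 to 2 type VI genes higher and 0 to 1 transmembrane genes lower. The cause of these shifts was not tested. The median collagen change of −0.045 was −0.070 to −0.003 with 1 array left out and 0.011 after centring on gene medians, an alternative chosen after seeing the data. Signs turned only in genes that did not pass: Col3a1 (−0.02), Col4a3 (0.03) and Col17a1 (0.05) with quantile normalization, Col4a3 (0.01) with median centring, Col4a3 (0.05) and Col17a1 (0.03) with centring on genes. With 1 array left out Col4a3 (−0.06 to 0.06, with 0.01 between), Col4a4 (−0.03), Col10a1 (−0.93 to 0.34, with 0.27 between), Col13a1 (−0.11 to 0.01) and Col25a1 (−0.08 to 0.08, with −0.02 between) turned in at least 1 case; the cause was not tested. No detection calls were given, so folds of dim genes can be underestimates.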
